A study of Mus musculus with 15 samples.

Results

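The potassium channel genes of mouse hippocampus were followed across 4 receptor genotypes on Agilent 1-colour expression arrays. The members are the genes whose symbol starts with Kcn, taken from every probe whose accession resolved to such a symbol and that was well above background on at least 3 of the 15 arrays; Kcnj13, a choroid plexus gene, was left out by rule and no probe matched it. Of 88 Kcn symbols with a probe, 81 passed, out of 22872 genes tested in all. The 7 that did not pass were Kcng3, Kcnj1, Kcnj15, Kcnj2, Kcnmb3, Kcnmb4os1 and Kcnv2. Of the 81 genes, 71 were well above background on every array and 10 on some arrays, and 1 of them, Kcnq1ot1, encodes a long non-coding RNA and no channel.

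All mice were C57BL/6 males of about 2.5 months, and RNA came from the whole hippocampus of both sides. GREmx1-cre mice (n = 4) carried a floxed glucocorticoid receptor (GR, gene Nr3c1) and Emx1-Cre, MREmx1-cre mice (n = 4) a floxed mineralocorticoid receptor (MR, gene Nr3c2) and Emx1-Cre, GRMREmx1-cre mice (n = 3) both floxed receptors and Emx1-Cre, and dflox controls (n = 4) both floxed receptors and no Cre. By the crosses described, dflox and GRMREmx1-cre mice share both floxed alleles, while each single knockout was set against a control with 1 more floxed receptor; full genotypes were not given in the sources used here. Emx1-Cre acts in the lineage of forebrain excitatory neurons and part of the glia from early development, so interneurons, microglia and vessels keep both receptors, and adult loss cannot be separated from developmental loss. Whether each array held 1 animal or a pool was not given in the sources used here, and p-values measure the spread between these arrays.

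Potassium channels carry the outward current that repolarises neurons, sets their resting potential and limits repetitive firing. Voltage-gated pore subunits (Kcna to Kcnd, Kcnq, Kcnh) open on depolarisation, silent subunits (Kcnf, Kcng, Kcns, Kcnv) form no channel alone but join Kv2 subunits and alter their gating, and auxiliary subunits (Kcnab, Kcne, Kcnip, Kcnmb) change trafficking and kinetics. Calcium-activated channels (Kcnn, Kcnma) shape the afterhyperpolarisation, inward rectifiers (Kcnj) include the G protein-gated channels opened by GABA-B, adenosine and serotonin receptors, and tandem-pore channels (Kcnk) carry leak current. In hippocampal pyramidal and granule cells, corticosteroids acting through MR and GR are known to alter the afterhyperpolarisation and the response to serotonin.

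Levels below are log2 of the processed intensity minus the array's 75th percentile, so 0 is the 75th percentile of that array. The 75th percentile lay between 821 and 1027 intensity units over the 15 arrays, no spot was saturated, and replicate arrays of 1 genotype correlated at r = 0.981 to 0.992 over genes. Nr3c1 stood between -0.66 and -0.53 in GREmx1-cre, between 2.08 and 2.28 in MREmx1-cre and between -0.08 and 0.09 in GRMREmx1-cre hippocampus, against 1.49 to 1.79 in dflox. Nr3c2 has 3 tested probes. The brightest had levels of -3.65 to -3.36 in dflox. Its log2 fold change against dflox was 0.42 in GREmx1-cre and -0.31 in GRMREmx1-cre, both past the test. In MREmx1-cre its change was -0.11, which did not pass. The others changed by -0.77 (adjusted p = 0.108) and -0.38 (adjusted p = 0.268) in MREmx1-cre and by -0.32 and -0.29 in GRMREmx1-cre, none past the test. Whether they lie in the deleted exons was not given, so they check nothing. All arrays of a genotype lay on 1 slide and each slide held 1 genotype, so an effect of the slide cannot be told apart from one of the genotype. In whole-tissue RNA, fewer cells of a type and less RNA per cell cannot be told apart either.

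Hippocampus without MR had less Kcng2 and Kcnip2 and more Kcnf1, Kcna6, Kcnt1 and Kcnj9 than dflox, whether or not GR was also absent. In GRMREmx1-cre against GREmx1-cre Kcnj9 did not pass, while the others named did. Hippocampus without GR alone had more Kcns1 and Kcnj14 than dflox. At a limma adjusted p under 0.05 over all genes, 2 of 81 Kcn genes (2.47%) changed in GREmx1-cre against dflox, both upward, where 3.15% of all genes changed, 2.26% upward and 0.888% downward; at an unadjusted p under 0.05 the counts were 11 Kcn genes and 19.1% of all genes. In MREmx1-cre against dflox 11 (13.6%) changed, 8 upward and 3 downward, where 6.8% of all genes did, 4.21% upward and 2.6% downward. In GRMREmx1-cre against dflox 12 (14.8%) changed, 8 upward and 4 downward, a share close to the 16.3% of all genes, of which 11.4% rose and 4.84% fell. The share in MREmx1-cre rested on single arrays: without dflox replicate 1 it was 5 genes, or 6.17% of Kcn genes against 4.43% of all genes, without dflox replicate 4 it was 6 genes (7.41% against 4.54%), and without MREmx1-cre replicate 2 it was 7 (8.64% against 4.74%). With arrays scaled to their median the counts in MREmx1-cre were 4 upward and 3 downward, and in GRMREmx1-cre 5 upward and 5 downward. The median log2 fold change over the 81 genes was 0.06 in GREmx1-cre, 0.04 in MREmx1-cre and 0.09 in GRMREmx1-cre, against 0.02, 0.04 and 0.03 over all genes.

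The groups did not overlap for 7 of 81 genes in GREmx1-cre against dflox, where 12.7% of all genes did not overlap. For MREmx1-cre against dflox 16 of 81 genes did not overlap, beside 13.9% of all genes. For GRMREmx1-cre against dflox 23 of 81 did not, beside 29.4% of all genes, and against MREmx1-cre 15 of 81 did not, beside 17.1%. Altogether 22 Kcn genes (27.2%) passed the test in at least 1 of 6 comparisons, beside 25.4% of all genes, and 59 passed in none.

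**Figure D1:**
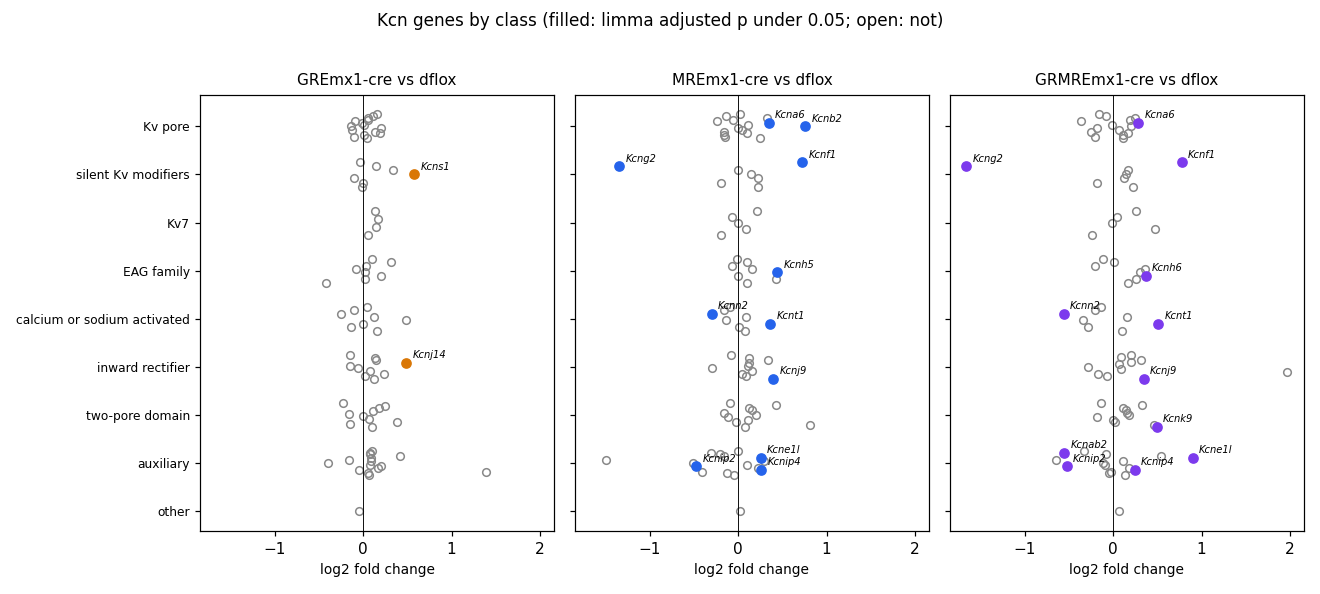
Log2 fold change (x axis) of the Kcn genes against dflox, by role class (y axis), for GREmx1-cre, MREmx1-cre and GRMREmx1-cre; each point is a gene, filled where the limma adjusted p is under 0.05, and genes with no array well above background in 1 of the groups compared are left out (3, 1 and 0 of 81). Kcng2 is at -1.35 in MREmx1-cre and -1.66 in GRMREmx1-cre, Kcnf1 at 0.73 and 0.78, and 2 genes are filled in GREmx1-cre.

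Of the 7 silent subunits, 1 rose in GREmx1-cre, 1 rose and 1 fell in MREmx1-cre, and 1 rose and 1 fell in GRMREmx1-cre, each against dflox. Over all genes 3.15%, 6.8% and 16.3% were called in these comparisons, the background of this and each class below. Kcng2, a Kv6 subunit that modifies Kv2 channels, fell most among the genes called. Its level was 1.46, 1.42, 1.43 and 1.48 in GREmx1-cre, 0.10, -0.14, -0.15 and 0.03 in MREmx1-cre and -0.42, -0.23 and -0.41 in GRMREmx1-cre, against 1.45, 1.35, 0.91 and 1.52 in dflox. All 7 arrays without MR lay below all 8 arrays with it, and GREmx1-cre arrays lay among the dflox arrays. The change was -1.35 ± 0.112 in MREmx1-cre (SE, 2.54-fold lower, adjusted p = 5.08e-05) and -1.66 ± 0.121 in GRMREmx1-cre (3.16-fold lower, adjusted p = 9.44e-06). Between GRMREmx1-cre and MREmx1-cre the difference of -0.31 did not pass (adjusted p = 0.202).

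Kcnf1, the Kv5 silent subunit, rose. It stood at 0.94, 1.16, 1.23 and 1.21 in GREmx1-cre, 1.86, 1.94, 1.87 and 1.92 in MREmx1-cre and 1.92, 1.87 and 2.06 in GRMREmx1-cre, against 0.92, 1.12, 1.39 and 1.27 in dflox. The arrays without MR were all above those with it. The rise was 0.73 ± 0.094 in MREmx1-cre (SE, 1.65-fold, adjusted p = 0.000875) and 0.78 ± 0.102 in GRMREmx1-cre (1.71-fold, adjusted p = 0.000356). Kcns1, a Kv9 silent subunit known in sensory neurons, was the silent subunit that rose with GR loss. It was -1.53, -1.34, -1.13 and -1.29 in GREmx1-cre, against -1.85, -1.81, -2.04 and -1.89 in dflox. These groups did not overlap, and the rise was 0.58 ± 0.102 (SE, adjusted p = 0.0115). In GRMREmx1-cre the difference from dflox, 0.15, did not pass (adjusted p = 0.408), and the interaction of both losses for Kcns1, -0.57, did not pass either (adjusted p = 0.0807).

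**Figure D2:**
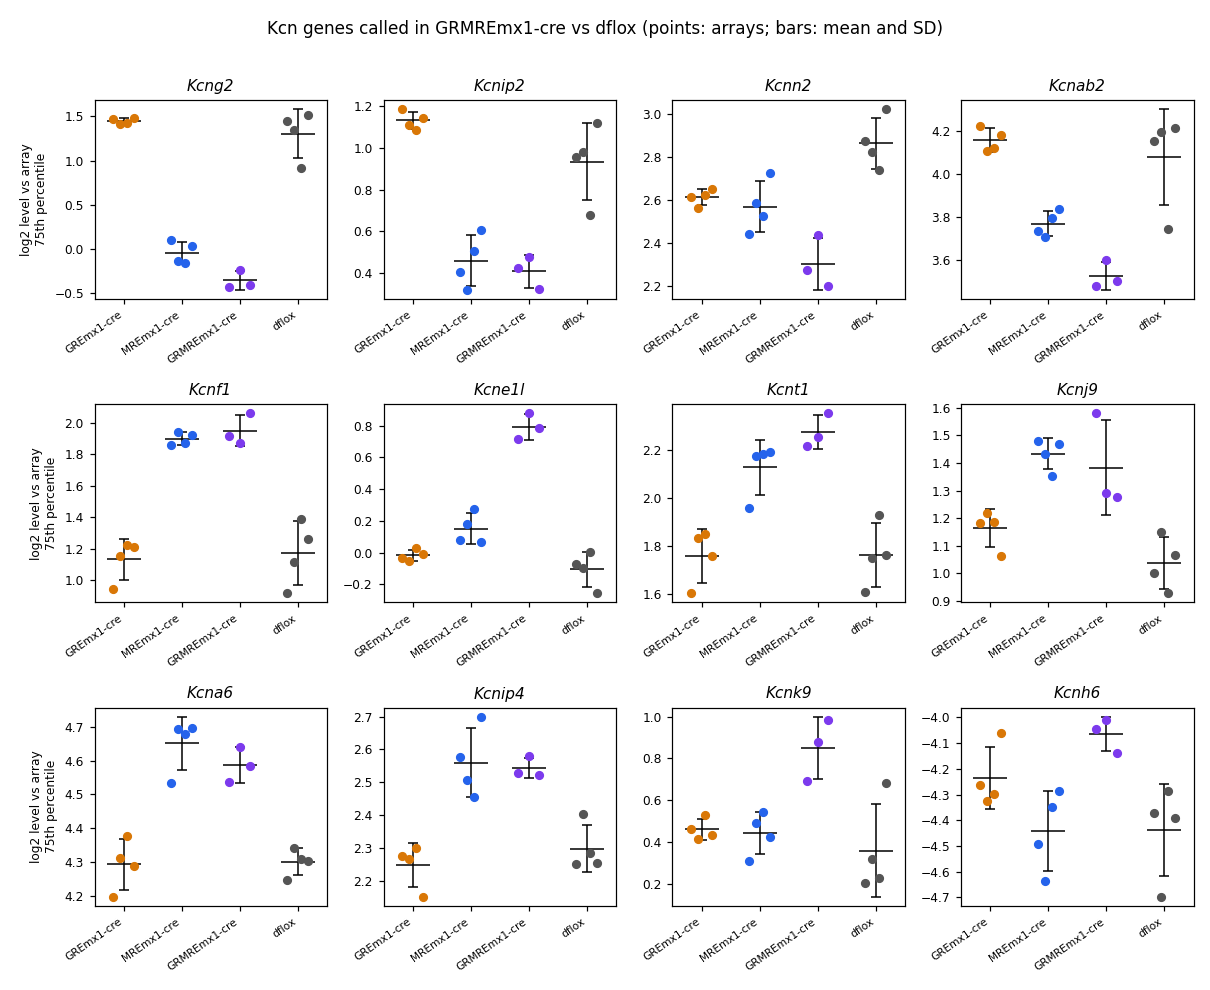
Level (y axis, log2 against the array's 75th percentile) of the 12 Kcn genes called in GRMREmx1-cre against dflox, by genotype (x axis); points are arrays and bars the mean and SD. Kcng2 and Kcnip2 are lower and Kcnf1 higher on the 7 arrays without MR, while Kcne1l is above 0.70 only on the 3 GRMREmx1-cre arrays.

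Of the 15 auxiliary subunits, none passed in GREmx1-cre (2 at an unadjusted p under 0.05, beside 19.1% of all genes). In MREmx1-cre 2 rose and 1 fell, and in GRMREmx1-cre 2 rose and 2 fell. A pair of KChIP genes moved in opposite directions; KChIPs are calcium-binding proteins that bring Kv4 channels, the A-type current of dendrites, to the membrane. Kcnip2 (KChIP2) was 1.19, 1.11, 1.09 and 1.15 in GREmx1-cre, 0.40, 0.32, 0.51 and 0.60 in MREmx1-cre and 0.42, 0.48 and 0.32 in GRMREmx1-cre, against 0.96, 0.98, 0.68 and 1.12 in dflox. Every array without MR was below every array with it. The fall was -0.47 ± 0.0864 in MREmx1-cre (SE, adjusted p = 0.0063) and -0.53 ± 0.0934 in GRMREmx1-cre (adjusted p = 0.00239).

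Kcnip4 (KChIP4), which slows Kv4 inactivation, was 2.28, 2.27, 2.30 and 2.15 in GREmx1-cre, 2.58, 2.51, 2.46 and 2.70 in MREmx1-cre and 2.53, 2.58 and 2.52 in GRMREmx1-cre, against 2.25, 2.40, 2.28 and 2.25 in dflox. The arrays without MR were above the others with no overlap. Its rise was 0.26 in MREmx1-cre (adjusted p = 0.0185) and 0.25 in GRMREmx1-cre (adjusted p = 0.0187). The other Kcnip4 probe gave 0.15 and 0.17, neither past the test, and the calls were lost with the probes averaged. The call in MREmx1-cre was also lost without dflox replicate 1 or 4 (0.25 each), and that in GRMREmx1-cre without GRMREmx1-cre replicate 2 (0.23) and with median scaling (0.16). Their Kv4 partner Kcnd2, the main A-type pore subunit of pyramidal cells, did not pass in MREmx1-cre (-0.15, adjusted p = 0.291) or GRMREmx1-cre (-0.20, adjusted p = 0.126).

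Kcnf1, Kcnip2 and Kcnip4 were called in both MR-loss genotypes in opposing directions, so promoter windows of 300 bases around their start sites are shown, from RefSeq on GRCm38.p6. Capitals mark the hexamer TGTTCT or its reverse complement AGAACA, the core that both corticosteroid receptors bind, found by a search of both strands. Kcnf1 is on the minus strand at chr12:17176839-17177138, Kcnip2 on the minus strand at chr19:45816014-45816313, and an inner start of Kcnip4 on the minus strand at chr5:48599633-48599932.
Kcnf1: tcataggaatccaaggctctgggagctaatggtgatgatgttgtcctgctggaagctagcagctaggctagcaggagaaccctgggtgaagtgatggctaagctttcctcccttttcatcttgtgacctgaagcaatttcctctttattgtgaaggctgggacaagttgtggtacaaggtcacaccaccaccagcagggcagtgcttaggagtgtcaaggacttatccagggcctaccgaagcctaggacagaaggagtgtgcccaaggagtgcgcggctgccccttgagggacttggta
Kcnip2: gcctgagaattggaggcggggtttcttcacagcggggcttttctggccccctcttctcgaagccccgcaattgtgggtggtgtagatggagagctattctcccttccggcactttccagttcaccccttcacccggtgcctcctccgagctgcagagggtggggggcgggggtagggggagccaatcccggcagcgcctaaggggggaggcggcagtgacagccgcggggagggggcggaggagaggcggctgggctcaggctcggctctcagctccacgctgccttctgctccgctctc
Kcnip4: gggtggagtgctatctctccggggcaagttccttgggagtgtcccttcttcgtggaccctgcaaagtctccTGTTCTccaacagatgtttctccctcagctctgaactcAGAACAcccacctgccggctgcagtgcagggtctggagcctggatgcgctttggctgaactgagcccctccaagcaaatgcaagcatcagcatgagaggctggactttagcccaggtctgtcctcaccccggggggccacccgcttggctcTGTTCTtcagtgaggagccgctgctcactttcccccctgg
The Kcnip4 window shown holds 3 such hexamers, and the Kcnf1 and Kcnip2 windows hold 0. The window of another Kcnip4 start, at chr5:49285610-49285909 and not shown, also holds 0. Of all 32851 windows of 300 bases, 19.0% hold the hexamer, against 16.9% of the 83 windows of tested Kcn genes. A palindrome of GNACANNNTGTNC stood in 0.475% of all windows and in 1 of those 83. Among the 18 windows of Kcn genes called in at least 1 comparison, 5 hold the hexamer (27.8%) and 0 the palindrome. A match describes letters in a window and no binding.

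Kcne1l (also Kcne5), a small X-linked subunit that inhibits KCNQ1 channels, was the 1 member with a called interaction of both losses. It was -0.04, -0.05, 0.03 and -0.01 in GREmx1-cre, 0.08, 0.18, 0.28 and 0.07 in MREmx1-cre and 0.72, 0.88 and 0.78 in GRMREmx1-cre, against -0.07, -0.10, 0.00 and -0.26 in dflox. The 3 double-knockout arrays stood above all 12 others, and the MREmx1-cre arrays just above the GREmx1-cre and dflox arrays. The rise was 0.26 ± 0.0643 in MREmx1-cre (SE, adjusted p = 0.0318) and 0.90 ± 0.0694 in GRMREmx1-cre (1.86-fold, adjusted p = 1.35e-05). GRMREmx1-cre exceeded MREmx1-cre by 0.64 ± 0.0694 (adjusted p = 0.000472), the 1 Kcn gene of 81 called there (1.23%) beside 2.98% of all genes. The interaction, the effect of GR loss without MR minus that with MR, was 0.55 ± 0.0946 (adjusted p = 0.0181), again 1 Kcn gene of 81, beside 1.29% of all genes. Without GRMREmx1-cre replicate 2 the interaction was 0.51 and no longer passed, and the rise in MREmx1-cre was lost when any of 5 arrays was left out (0.21 to 0.27).

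Kcnab2, the Kv beta subunit that binds Kv1 channels on axons, was 4.22, 4.11, 4.12 and 4.18 in GREmx1-cre, 3.74, 3.71, 3.80 and 3.84 in MREmx1-cre and 3.48, 3.60 and 3.50 in GRMREmx1-cre, against 4.16, 4.20, 3.75 and 4.22 in dflox. The GRMREmx1-cre arrays were the lowest, and dflox replicate 3 lay among the MREmx1-cre arrays. Kcnab2 fell by 0.55 in GRMREmx1-cre (SE 0.0958, adjusted p = 0.00214); in MREmx1-cre the difference of -0.31 did not pass (adjusted p = 0.0566).

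Kcne2, chosen after its values were seen, is a KCNE subunit that is abundant in choroid plexus. It was 1.52, 2.18, 2.05 and 2.83 in GREmx1-cre, 1.86, -3.49, 2.85 and 2.03 in MREmx1-cre and 1.85, 1.42 and 1.74 in GRMREmx1-cre, against 2.83, 1.60, 3.03 and 1.78 in dflox. MREmx1-cre replicate 2 stood alone, and the 5 choroid plexus markers averaged -4.04 on the log2 scale there, relative to the mean of all arrays, against -0.51 to 1.26 on the other 14 arrays. The difference in MREmx1-cre was -1.50 (adjusted p = 0.443), and -0.07 without that array.

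Of the 8 calcium- or sodium-activated channels, none passed in GREmx1-cre (1 at an unadjusted p under 0.05, beside 19.1% of all genes). In each of MREmx1-cre and GRMREmx1-cre 1 rose and 1 fell. Kcnn2 encodes SK2, a small-conductance channel of the medium afterhyperpolarisation and of dendritic spines. It was 2.62, 2.56, 2.62 and 2.65 in GREmx1-cre, 2.44, 2.59, 2.52 and 2.72 in MREmx1-cre and 2.27, 2.44 and 2.20 in GRMREmx1-cre, against 2.87, 2.82, 2.74 and 3.02 in dflox. Every knockout array was below every dflox array. The change was -0.29 ± 0.0743 in MREmx1-cre (SE, adjusted p = 0.0334) and -0.56 ± 0.0803 in GRMREmx1-cre (adjusted p = 0.000668), and -0.25 ± 0.0743 in GREmx1-cre did not pass (adjusted p = 0.0904). The MREmx1-cre call was lost when any of 6 arrays was left out (-0.31 to -0.24). The other Kcnn2 probe gave -0.68 in GRMREmx1-cre and -0.35 in MREmx1-cre, both past the test over probes. Kcnn2 lies on chromosome 18 with 21 tested genes between it and Nr3c1, and Kcng2 on the same chromosome with 183 between; the part of position was not tested.

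Kcnt1, the sodium-activated channel Slack, rose. It was 1.60, 1.83, 1.85 and 1.76 in GREmx1-cre, 1.96, 2.18, 2.19 and 2.19 in MREmx1-cre and 2.22, 2.25 and 2.35 in GRMREmx1-cre, against 1.61, 1.75, 1.93 and 1.76 in dflox. All arrays without MR were above all arrays with it, and MREmx1-cre replicate 1 was close to the highest dflox array. The rise was 0.37 ± 0.0801 in MREmx1-cre (SE, adjusted p = 0.017) and 0.51 ± 0.0865 in GRMREmx1-cre (adjusted p = 0.00177). A second Kcnt1 probe gave 0.28 and 0.43, both past the test, and the remaining one gave 0.25 and 0.40, neither past it. The call in MREmx1-cre was lost without dflox replicate 1 (0.31) or MREmx1-cre replicate 4 (0.34). The other SK genes and the BK pore gene Kcnma1 passed in none of the 6 comparisons; in GRMREmx1-cre against dflox Kcnn1 stood at -0.20 (adjusted p = 0.0657), Kcnn3 at 0.15 (adjusted p = 0.713) and Kcnma1 at -0.13 (adjusted p = 0.146).

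Of the 15 voltage-gated pore genes of the Kcna to Kcnd families, none passed in GREmx1-cre. There 1 had an unadjusted p under 0.05, beside 19.1% of all genes. In MREmx1-cre 2 rose, and in GRMREmx1-cre 1 rose. Kcna6, a low-threshold Kv1 subunit, was 4.20, 4.31, 4.38 and 4.29 in GREmx1-cre, 4.53, 4.69, 4.68 and 4.70 in MREmx1-cre and 4.54, 4.64 and 4.58 in GRMREmx1-cre, against 4.25, 4.34, 4.31 and 4.30 in dflox. The arrays without MR did not overlap those with it. Kcna6 rose by 0.35 in MREmx1-cre (SE 0.0519, adjusted p = 0.00185) and by 0.29 in GRMREmx1-cre (SE 0.0561, adjusted p = 0.00429). Median scaling ended the call in GRMREmx1-cre, at 0.20.

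Kcnb2, a delayed rectifier of the Kv2 family, was -2.14, -2.34, -2.93 and -3.24 in MREmx1-cre, against -3.56, -3.25, -3.45 and -3.45 in dflox. The groups did not overlap, but the lowest MREmx1-cre array lay next to the highest dflox array. Its rise of 0.76 ± 0.19 (SE, adjusted p = 0.0313) was lost when any of 5 arrays was left out (0.59 to 0.75). In GRMREmx1-cre Kcnb2 was -3.10, -3.33 and -3.23, and neither 0.20 against dflox nor 0.34 against GREmx1-cre passed. Of the 8 EAG-family channels, Kcnh5 rose by 0.44 in MREmx1-cre (SE 0.123, adjusted p = 0.0496), a call lost under 19 of 24 alternatives. Kcnh6, an ERG channel, rose by 0.37 in GRMREmx1-cre (SE 0.106, adjusted p = 0.0308) and was lost when any of 5 arrays was left out (0.29 to 0.41).

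Of the 11 inward rectifiers, 1 rose in each of the 3 comparisons with dflox and none fell. Kcnj9 encodes GIRK3, a G protein-gated subunit. It was 1.18, 1.22, 1.19 and 1.06 in GREmx1-cre, 1.48, 1.43, 1.35 and 1.47 in MREmx1-cre and 1.58, 1.29 and 1.28 in GRMREmx1-cre, against 1.0, 1.15, 0.93 and 1.07 in dflox. The arrays without MR were above all dflox arrays and all GREmx1-cre arrays. Kcnj9 rose by 0.40 in MREmx1-cre (SE 0.0723, adjusted p = 0.00621) and by 0.35 in GRMREmx1-cre (SE 0.0781, adjusted p = 0.00929). Between GRMREmx1-cre and GREmx1-cre its difference did not pass. The other G protein-gated subunits did not pass against dflox; Kcnj3 (GIRK1) stood at -0.30 in MREmx1-cre (adjusted p = 0.11) and -0.29 in GRMREmx1-cre (adjusted p = 0.104), and Kcnj6 (GIRK2) at 0.04 (adjusted p = 0.853) and -0.17 (adjusted p = 0.321). Kcnj14, a strong inward rectifier of motor nuclei, was -2.40, -2.35, -2.22 and -2.09 in GREmx1-cre, against -2.63, -2.90, -2.82 and -2.65 in dflox. These groups did not overlap, and the rise was 0.49 ± 0.0839 (SE, adjusted p = 0.0104).

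Among the 11 tandem-pore channels none passed in either single knockout (3 in each at an unadjusted p under 0.05, where 19.1% of all genes in GREmx1-cre and 21.9% in MREmx1-cre were) and Kcnk9 rose in GRMREmx1-cre. Kcnk9 (TASK-3), an acid-sensitive leak channel, was 0.69, 0.88 and 0.99 in GRMREmx1-cre, against 0.20, 0.32, 0.23 and 0.68 in dflox. The GRMREmx1-cre arrays were the highest, and dflox replicate 4 lay just below them. The rise was 0.49 ± 0.108 (SE, adjusted p = 0.00809). None of the 5 Kv7 genes passed in any of the 6 comparisons (2 at an unadjusted p under 0.05 in GRMREmx1-cre against dflox, where 29.6% of all genes were), a family that carries the M-current; in GRMREmx1-cre against dflox Kcnq3 stood at -0.01 (adjusted p = 0.939), Kcnq5 at -0.24 (adjusted p = 0.129) and Kcnq1 at 0.26 (adjusted p = 0.108). The antisense RNA Kcnq1ot1 stood at 0.07 there (adjusted p = 0.773).

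**Figure D3:**
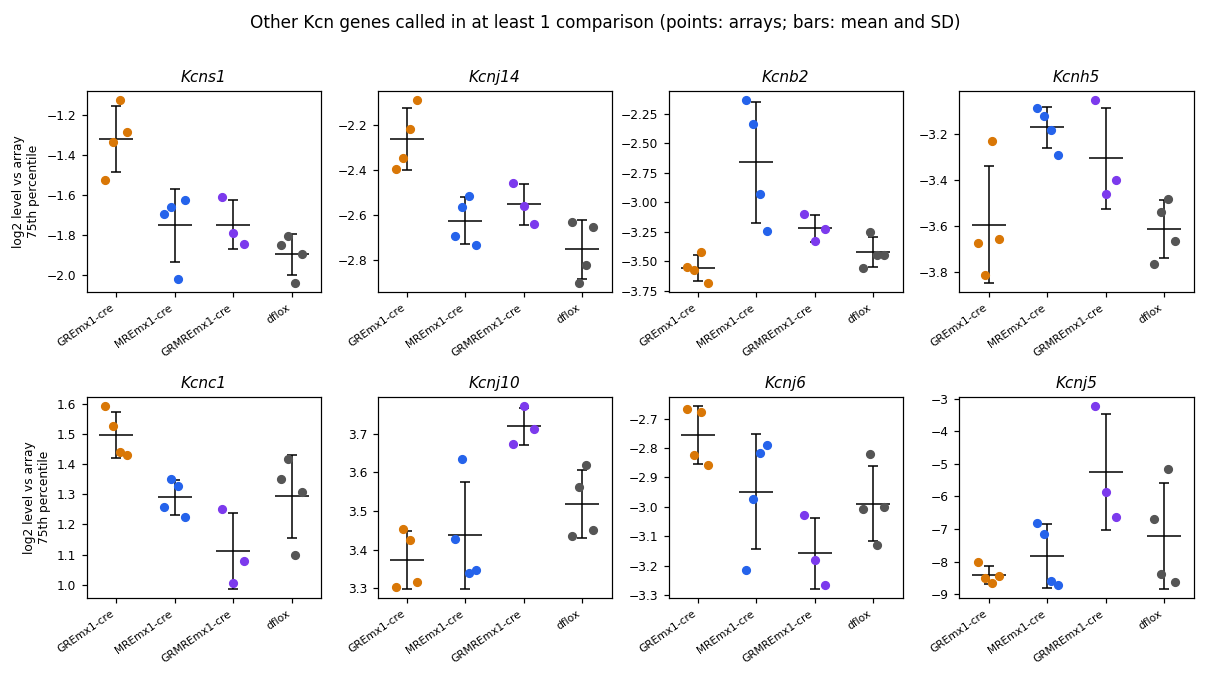
Level (y axis, log2 against the array's 75th percentile) of 8 further Kcn genes called in at least 1 comparison, by genotype (x axis); points are arrays and bars the mean and SD. Kcns1 and Kcnj14 are highest on the 4 GREmx1-cre arrays, and Kcnj5 spreads over several log2 units within a genotype.

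Loss of MR can be read in mice that keep GR (MREmx1-cre against dflox) and in mice that lack it (GRMREmx1-cre against GREmx1-cre), and these comparisons share no array. In the second, 18 of 81 Kcn genes passed (22.2%), 8 upward and 10 downward, beside 16.1% of all genes (9.23% upward and 6.91% downward), and 29 of 81 did not overlap, beside 29.8% of all genes. Without GRMREmx1-cre replicate 2 the count was 11 (13.6%, beside 9.08% of all genes), and without replicate 3 it was 11 (beside 9.75%). Kcna6, Kcne1l, Kcnf1, Kcng2, Kcnip2, Kcnip4, Kcnn2 and Kcnt1 were called in both, which is 8 of 11 and 8 of 18 calls (72.7% and 44.4%), with the same sign for 8 of 8. Over all genes 3.84% were called in both, which is 56.5% and 23.8% of the calls, and 96.5% of them had the same sign. In GRMREmx1-cre against GREmx1-cre Kcng2 stood at -1.80 (adjusted p = 6.54e-06), Kcnf1 at 0.82 (adjusted p = 0.00035), Kcnip2 at -0.73 (adjusted p = 0.000411) and Kcnt1 at 0.52 (adjusted p = 0.00194). Kcnab2, which missed the threshold in MREmx1-cre, fell there by 0.63 (adjusted p = 0.00109). The Kcnn2 call there, at -0.31, was lost without GRMREmx1-cre replicate 1 (-0.29) or 3 (-0.26). Over all 81 genes the fold changes of both comparisons correlated at r = 0.37 and rho = 0.53, beside r = 0.38 and rho = 0.33 over all genes. Over the 71 genes above background on every array they correlated at r = 0.72 and rho = 0.65, with 49 of 71 of the same sign. No value over all genes above background on every array was computed, so those of the 71 stand without a background. The points share arrays and scaling within each comparison, and this is a description across genes. The sign was the same for 66.7% of the 81, against 61.3% of all 22872 genes. The corresponding pair for GR loss, GREmx1-cre against dflox and GRMREmx1-cre against MREmx1-cre, gave r = -0.34 and rho = -0.06 over the 81 genes and r = -0.05 over the 71. There 32 of 81 had the same sign (39.5%), against 51.8% of all genes, which gave r = 0.20 and rho = 0.10.

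**Figure D4:**
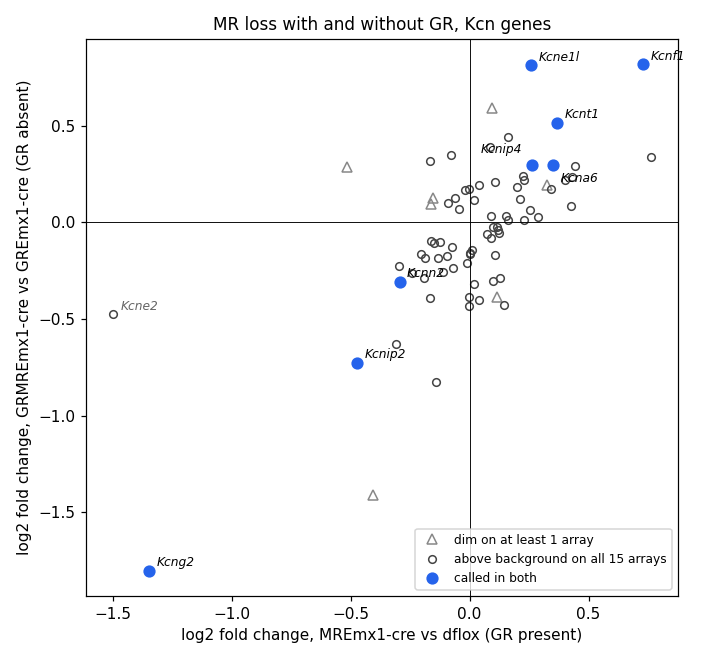
Log2 fold change of 78 Kcn genes with MR loss where GR is absent (y axis, GRMREmx1-cre against GREmx1-cre) and where it is present (x axis, MREmx1-cre against dflox); filled points are called in both, triangles are dim on at least 1 array, and genes dim on all arrays of 1 of the groups are left out. The 8 filled genes lie in the quadrants of equal sign, and Kcne2 lies to the left at -1.50.

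Of the 18 genes called between GRMREmx1-cre and GREmx1-cre, some had passed against dflox and others had not. Kcnj10, the Kir4.1 channel of astrocytes, was 3.67, 3.77 and 3.71 in GRMREmx1-cre, against 3.30, 3.45, 3.42 and 3.32 in GREmx1-cre, with no overlap and a rise of 0.35 ± 0.0757 (SE, adjusted p = 0.0088); it had not passed against dflox. Kcnc1, a fast Kv3 channel, fell by 0.38 (adjusted p = 0.00664), but its other probes stood at 0.09 and -0.03 and the call was lost with the probes averaged. Kcnj6 fell by 0.40 (adjusted p = 0.0222) and Kcnk9, which had risen against dflox, rose here by 0.39 (adjusted p = 0.0278). Kcns1 and Kcnj14, which had risen with GR loss, were lower here by -0.43 (adjusted p = 0.0191) and -0.29 (adjusted p = 0.048). The axonal Kv1 gene Kcna1 at -0.32 (adjusted p = 0.0483) passed narrowly, and its call was lost under 14 of 24 alternatives. Leaving out single arrays ended the calls of Kcnj6 (4 arrays, -0.39 to -0.35), Kcnk9 (5 arrays, 0.32 to 0.39), Kcns1 (3 arrays, -0.41 to -0.37) and Kcnj14 (12 arrays, -0.33 to -0.23). Kcnj5 (GIRK4) was well above background on 2 of 3 GRMREmx1-cre arrays, on dflox replicate 3 and on no other array. It met the filter of at least 3 arrays only through these, so its call (adjusted p = 0.0307) is not independent of the filter. Kcnj5 had means of -5.24 in GRMREmx1-cre and -8.41 in GREmx1-cre, 3.02-fold apart with GREmx1-cre set at the background floor. GRMREmx1-cre replicate 3, itself not well above background at -6.64, is counted in that mean, so this is no strict bound. Its call was lost when any of 5 arrays was left out. That ratio was 1.5-fold without GRMREmx1-cre replicate 1, and 3.75-fold and 4.90-fold without replicates 2 and 3.

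A list of 22 genes whose products work with potassium channels, of which 20 were tested, was read beside the members. In GREmx1-cre against dflox 1 rose, in MREmx1-cre 4 rose and 1 fell, and in GRMREmx1-cre 6 rose and 2 fell. The called shares over all genes were 3.15%, 6.8% and 16.3%. Lrrc55, a gamma subunit of BK channels, was -1.79, -2.02, -2.15 and -2.31 in GREmx1-cre, -0.96, -1.17, -1.39 and -1.13 in MREmx1-cre and -1.11, -1.27 and -1.16 in GRMREmx1-cre, against -2.0, -1.61, -1.72 and -2.21 in dflox. The arrays without MR were above the others with no overlap. Lrrc55 rose by 0.72 in MREmx1-cre (adjusted p = 0.0087) and by 0.71 in GRMREmx1-cre (adjusted p = 0.00689), while its channel's pore gene Kcnma1 did not pass. Hcn3, a pacemaker channel, rose by 0.36 (adjusted p = 0.0156) and 0.42 (adjusted p = 0.00509), and Lgi1, a secreted protein that acts on Kv1 channels, fell by 0.32 in GRMREmx1-cre (adjusted p = 0.00431). The 5 calls in MREmx1-cre became 3 without MREmx1-cre replicate 2, 3 or 4 or without dflox replicate 1 or 3, and 2 with median scaling, which ended the Hcn3 call there. The 8 in GRMREmx1-cre became 4 without GRMREmx1-cre replicate 3, and 5 without its replicate 1 or 2, without dflox replicate 2, 3 or 4 or with median scaling. The 1 in GREmx1-cre became 0 without GREmx1-cre replicate 1, 3 or 4 or dflox replicate 2 or 3. Lrrc55 and Hcn3 were called in both genotypes without MR whichever single array was left out.

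Markers of several hippocampal cell types also changed. Their counts stand beside 3.15%, 6.8% and 16.3% of all genes called in GREmx1-cre, MREmx1-cre and GRMREmx1-cre against dflox. Of 8 dentate granule cell markers, 2 rose and 4 fell in both MREmx1-cre and GRMREmx1-cre against dflox, and none passed in GREmx1-cre. Their mean deviation from the average array was 0.26 to 0.59 in GREmx1-cre, -0.35 to -0.20 in MREmx1-cre and -0.64 to -0.39 in GRMREmx1-cre, against 0.04 to 0.48 in dflox. Of 6 CA2 markers 4 fell in both genotypes without MR, at -0.46 to -0.26 in MREmx1-cre and -0.44 to -0.25 in GRMREmx1-cre, against 0.20 to 0.46 in dflox. Of 5 CA1 markers 1 rose and 1 fell in MREmx1-cre and 1 rose and 2 fell in GRMREmx1-cre, and of 5 CA3 markers 2 fell in each. The CA1 mean was -0.22 to -0.02 in MREmx1-cre and -0.53 to -0.40 in GRMREmx1-cre, against -0.10 to 0.32 in dflox. The CA3 mean was -0.36 to -0.12 in MREmx1-cre and -0.25 to -0.11 in GRMREmx1-cre, against 0.08 to 0.21 in dflox. The CA3 marker Homer3, which fell in both genotypes without MR, rose by 0.60 in GREmx1-cre. None of 8 interneuron markers passed in any comparison, and 3 of 6 astrocyte markers rose in GRMREmx1-cre, at 0.12 to 0.29 against -0.19 to -0.06 in dflox. Among the astrocyte markers Aqp4 also rose in GREmx1-cre (0.43) and Gfap in MREmx1-cre (0.34). Of 6 microglia markers 2 rose in MREmx1-cre and 3 in GRMREmx1-cre, and none passed in GREmx1-cre; their mean was 0.11 to 0.14 in MREmx1-cre and 0.11 to 0.28 in GRMREmx1-cre, against -0.25 to -0.08 in dflox. Of 6 meninges and fibroblast markers 2 fell in each of GREmx1-cre and MREmx1-cre, and 1 rose and 2 fell in GRMREmx1-cre. No oligodendrocyte, endothelium, pericyte or choroid plexus marker passed against dflox. Thalamus and habenula markers gave 1 rise in MREmx1-cre and 2 in GRMREmx1-cre, and those of neocortex and striatum 1 in GRMREmx1-cre. GREmx1-cre replicate 1 stood apart for thalamus and habenula markers, at 1.12 against at most 0.12 on the other arrays; leaving out it and MREmx1-cre replicate 2 gave 7 Kcn calls in MREmx1-cre (8.64%, beside 4.56% of all genes) and 13 in GRMREmx1-cre (16.0%, beside 16.5%). The part of cell type markers in the changes of the Kcn genes was not tested.

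**Figure D5:**
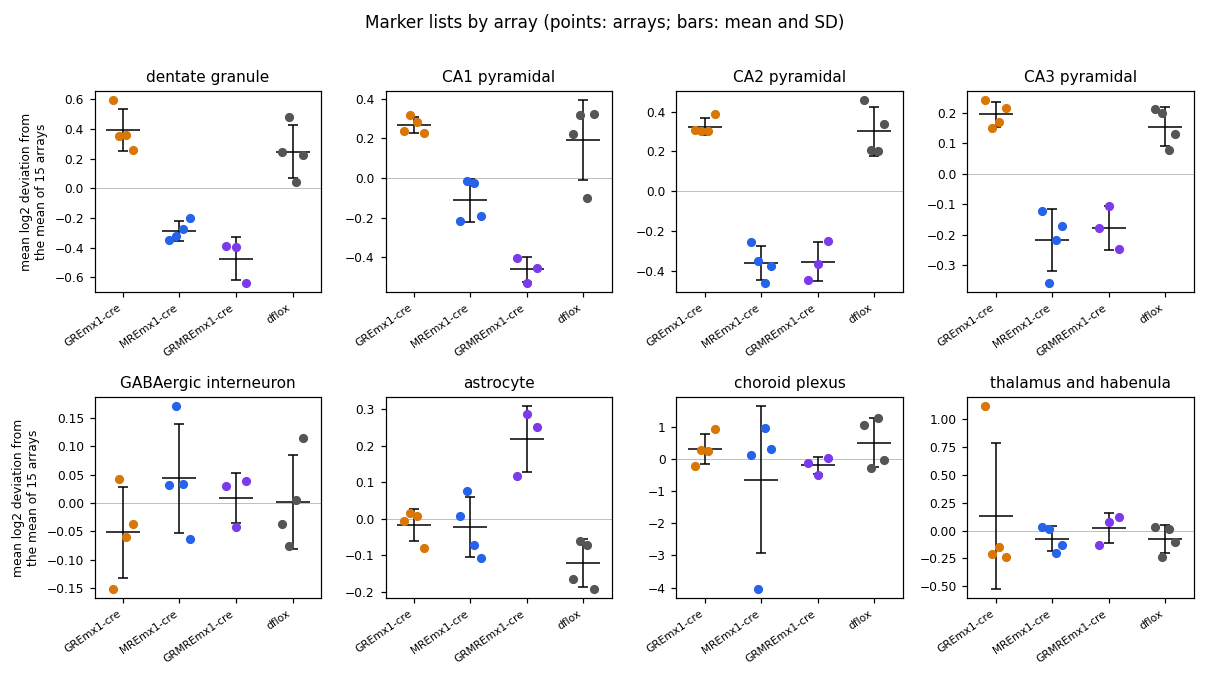
Mean log2 deviation from the average of the 15 arrays (y axis) for 8 marker lists, by genotype (x axis); points are arrays and bars the mean and SD. Dentate granule, CA2 and CA3 lists are lower on the 7 arrays without MR, and the CA1 list overlaps only through dflox replicate 3 at -0.10. Interneuron markers overlap across genotypes, and MREmx1-cre replicate 2 is at -4.04 for choroid plexus.

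The median within-genotype SD of the 81 genes was 0.136, close to 0.134 over all genes, and the widest were Kcne2 at 1.59, Kcnj5 at 1.26 and Kcnmb1, a BK beta subunit that was dim on 4 arrays, at 1.18.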

How the data were processed

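Total hippocampal RNA was labelled with Cy3 and hybridised to 15 Agilent arrays. Per the submitters' processing notes the scans were read with Agilent Feature Extraction 12.0. The deposited scanner files hold the authors' processed intensity per spot, and the deposited value table equals it at 45018 of 45018 spots on each array. From these, log2 of the processed intensity minus each array's 75th percentile over 43379 non-control spots was computed, 1281 outlier spots were dropped and spots of a probe averaged. Of 41174 probes, 28223 matched 1 symbol through RefSeq accessions (GRCm38.p6), 0 several and 12951 none; array annotation can be old. Kept were 30882 probes that at least 3 arrays measured well above background, with the brightest probe per gene, or per accession where no symbol matched. limma 3.58.1 (R 4.3.3) was fitted to all 15 arrays as group means with empirical Bayes, and p-values were adjusted by Benjamini-Hochberg at 0.05 over 22872 genes. The limma steps were tested on simulated data. Genes were named if called in any of the 6 comparisons, if best in a class with no call, or from a fixed set of AHP, GIRK, M and A current channels. Some genes under this rule are not reported here. Members and lists were chosen with earlier results of these data known. Alternatives were quantile and median scaling, normexp background correction with offset 50, no filter, probes averaged, a replicate block, and arrays left out. Same-numbered arrays of different genotypes correlated at r = -0.03 to 0.19 (6 of 21 pairs over 0.1), with a median of 0.07 against -0.02 for other pairs. Of 15 arrays, 14 correlated best with their own number. The numbers were not taken as pairs in the main fit and served as the block of an alternative. The number of arrays limits precision.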

Additional observations from a re-analysis of the deposited data

Results flagged for a closer look

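Among 96 groups of 4 arrays, 3 held an array far from the other 3, and chance flags about 1 in 20 such groups. Kcna6 was 4.53 on MREmx1-cre replicate 1, where the remaining MREmx1-cre arrays gave 4.68 to 4.70. Kcnt1 was 1.96 on the same array, against 2.18 to 2.19 on the others. Kcnab2 was 3.75 on dflox replicate 3, against 4.16 to 4.22 on the other dflox arrays. The effect of GR loss on Kcne1l differed with MR status by 0.55, by the interaction term of the fit.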

How the results depend on the processing

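Of 45 calls of single Kcn genes, 14 kept direction and threshold under every alternative run, and 29 were lost under at least 1. With 11 Kcn calls in MREmx1-cre against dflox, median scaling, no filter and leaving out both GREmx1-cre replicate 1 and MREmx1-cre replicate 2 each gave 7. For GRMREmx1-cre against MREmx1-cre (1 call), quantile scaling and leaving out both arrays gave 2 and the replicate block 3; for the interaction (1 call), quantile scaling and leaving out both arrays gave 2. Over single arrays left out, calls ran from 2 to 3 in GREmx1-cre, 5 to 12 in MREmx1-cre and 10 to 18 in GRMREmx1-cre against dflox, 11 to 18 in GRMREmx1-cre against GREmx1-cre, 1 to 3 in GRMREmx1-cre against MREmx1-cre and 0 to 2 for the interaction. Normexp on the median signals, chosen after seeing the data in place of the planned mean signals, which were not used here, gave 0, 1 and 52 calls against dflox, 46 against GREmx1-cre, 46 against MREmx1-cre and 0 for the interaction. Under it the fitted background mean was -804 to -30.6 on GRMREmx1-cre arrays, against -0.331 to 2.42 on the others, and the median of all genes in GRMREmx1-cre against dflox moved to 0.42. Only normexp reversed calls: against dflox Kcna6 to -0.0018 and Kcnip4 to -0.025 in GRMREmx1-cre, and in GRMREmx1-cre against GREmx1-cre Kcna6 to -0.0041, Kcnj10 to -0.039, Kcnj14 to 0.51, Kcnj6 to 0.67 and Kcns1 to 0.21. Over all genes, the calls in GREmx1-cre against dflox were 721, and 467 with quantile scaling, 440 with median scaling and 13 with normexp. The replicate block gave 3, 10 and 13 Kcn calls against dflox and 17 against GREmx1-cre; 14 of 15 arrays correlated best with their own number, a hint from the data and not the design. The cause of these changes was not tested.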
